A study of Sus scrofa with 67 samples.

Results

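The transcriptomes of the ovary and the endometrium were compared at day 0 of the porcine oestrous cycle, defined by the onset of oestrous behaviour. The comparison used 6 of the 66 libraries of the count table: 3 of ovary and 3 of endometrium, each group being every library that the labels place in that tissue on that day. All genes were tested in a single fit with a common normalization, so that 14605 of the 25322 genes in the table, those with enough counts in these 6 libraries, had a test. The animals were untreated crossbred Landrace × Yorkshire gilts (young females) of similar age that had passed through normal cycles, and both tissues were removed at hysterectomy. For the endometrium, the inner lining of the uterus, the sample was taken at mid-horn and left out the muscle wall. The ovary was taken whole, with its follicles, stroma, vessels and any corpora lutea in 1 piece, so a library holds the mixture of cell types that the organ had on that day. By the study's methods the tissues were collected from 3 gilts a day, and samples of a time point came from different pigs. Which ovary library and which endometrium library share a gilt is not given in the sources used here, so the libraries were compared without pairing.

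At the onset of oestrus the ovary carries large follicles that are about to ovulate. Their theca cells convert cholesterol to androgens under luteinizing hormone, their granulosa cells convert these to oestradiol and release inhibin, and each follicle encloses an oocyte with its zona pellucida coat. The endometrium is a target of that oestradiol: it is built of luminal and glandular epithelium on a stroma of fibroblasts, and its identity along the reproductive tract is set by HOX genes and other patterning factors. In bulk tissue, fewer cells of a type and less RNA per cell cannot be told apart.

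Library totals were alike in the tissues, at 9555136 to 10136163 counts in the endometrium and 10767881 to 11279804 in the ovary, and the 10 most abundant genes took 7.93% to 10.7% of a library. The endometrium libraries resembled each other closely, with Pearson r from 0.969 to 0.981 across genes on log2(CPM + 1), where CPM is the count of a gene relative to the scaled total of its library. The ovary libraries were more spread, with r = 0.962 between libraries 1 and 2, 0.928 between 2 and 3 and 0.905 between 1 and 3, and between tissues r ran from 0.786 to 0.821. Ovary libraries 1 and 3 were the least alike, and the biological coefficient of variation was 0.406 in the ovary against 0.220 in the endometrium. The tissue labels were checked with lists of defining markers. The summed level of 5 uterine patterning genes was 373 to 482 CPM in the endometrium of day 0 and 3.18 to 4.51 CPM in the ovary, and GATA4, a factor of ovarian somatic cells, had 0 counts in all 3 endometrium libraries. On the other days, used further on, ovary library 1 of day 15 held 18.2 CPM of HOXA11, a patterning gene with 0 counts in 20 of the 22 ovary libraries, and its uterine patterning genes summed to 34.0 CPM against 2.31 to 7.73 CPM in the other ovary libraries. That library goes against its label in this respect, and the counts over genes that rest on it are given with and without it. In this check over the 22 ovary libraries, CPM are relative to unscaled library totals.

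Ovary and endometrium differed in 4334 genes, 29.7% of those tested, by edgeR's quasi-likelihood test at a Benjamini-Hochberg adjusted p under 0.05. Of these, 2117 genes (14.5% of those tested) were higher in the ovary and 2217 (15.2%) were higher in the endometrium. An at least 8-fold difference was called for 447 genes in favour of the ovary (3.06%) and for 741 in favour of the endometrium (5.07%). The ovarian number was much higher with all 66 libraries in the fit, as given in the closing section. The median log2 fold change, written as ovary over endometrium throughout, was 1.66 over the genes called higher in the ovary, -2.08 over those called higher in the endometrium and 0.03 over all genes tested. Every library of the higher tissue lay above every library of the other for 2059 of the 2117 and for all 2217 genes, where 22% and 24.4% of all tested genes showed no overlap in the same direction. Pig symbols were found for 3015 of the called genes. The number of genes called fell to 2871, 2677 and 2447 when endometrium library 1, 2 or 3 was left out, with 1137, 1020 and 959 genes called higher in the ovary. With ovary library 1, 2 or 3 left out, 4102, 3254 and 5553 genes were called. Scaling by library totals alone, which moved the median of all genes to -0.25, gave 1456 genes higher in the ovary and 3342 higher in the endometrium in place of 2117 and 2217.

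**Figure D1:**
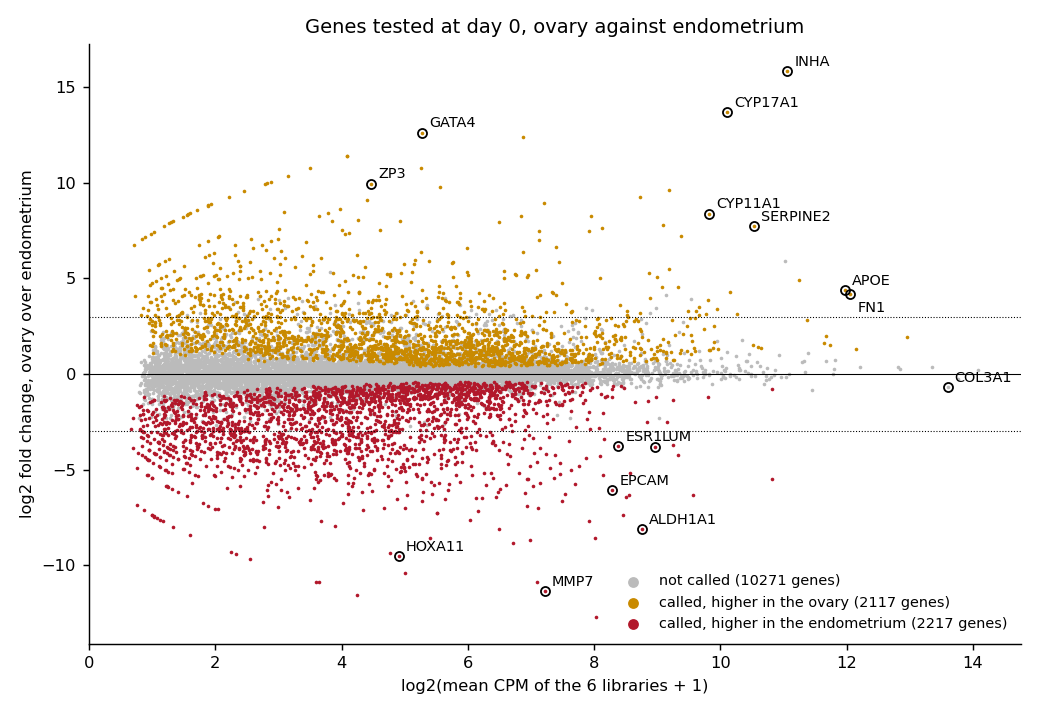
Each point is 1 of 14605 tested genes, with its mean level over the 6 libraries of day 0 on the x axis, as log2(CPM + 1), and the fitted log2 fold change of ovary over endometrium on the y axis; dotted lines mark 8-fold. The 2117 genes called higher in the ovary lie above 0 and the 2217 called higher in the endometrium below it, with INHA and CYP17A1 at the top right and MMP7 and HOXA11 near the bottom; for genes with 0 to 3 counts in the lower tissue the fitted value depends on the prior count.

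Steroid hormone synthesis was an ovarian group: 5 of the 7 tested genes on its list were called higher in the ovary, none was called higher in the endometrium, and the median log2 fold change was 5.01 against 0.03 over all genes tested. Of all tested genes 14.5% were called higher in the ovary and 15.2% higher in the endometrium. CYP17A1 (ENSSSCG00000010591), the enzyme that turns progestagens into androgens, was measured at 95.4, 3459 and 3032 CPM in ovary libraries 1, 2 and 3. In the endometrium it had 5 counts in all, or 0.191, 0.0921 and 0.177 CPM. Ovary library 1 was far below the other ovary libraries and still far above the endometrium. The log2 fold change was 13.70 ± 1.82 (SE, adjusted p = 0.00265 by edgeR). Each SE, here and below, is the absolute log2 fold change over the square root of the test's F statistic. It was not fitted as a standard error of its own. CYP11A1, which cleaves the side chain of cholesterol in the first step of the pathway, had 345, 2277 and 2804 CPM in the ovary. Endometrium values of CYP11A1 were 4.11, 5.16 and 6.91 CPM, a log2 fold change of 8.39 ± 0.95 (SE, adjusted p = 0.00156) without overlap. NR5A1 (steroidogenic factor 1), the transcription factor that drives these genes, was more even among the ovaries at 21.4, 32.5 and 33.9 CPM. Only 2 counts of NR5A1 were found in the endometrium, so its level there was 477 times lower, with a counting interval of 132 to 3938 (95%, exact Poisson, counting error only), and its adjusted p was 0.000256. Its relative NR5A2 had 13.7, 209 and 326 CPM in the ovary and 4.52 to 7.0 CPM in the endometrium (log2 fold change 5.01 ± 1.08 SE, adjusted p = 0.0153), and lost its call without any 1 endometrium library, which left 4 of the 7 genes; without ovary library 3 its log2 fold change was 4.30. FDXR, the ferredoxin reductase that passes electrons to CYP11A1, differed less, by 1.66 ± 0.31 (SE, adjusted p = 0.00875). The other two tested members did not pass: TSPO, a mitochondrial outer membrane protein, with a log2 fold change of 0.39 ± 0.58 (SE), and HSD17B7 with 0.62 ± 0.54 (SE). STAR, HSD3B1 and CYP19A1 were among 7 listed symbols that no identifier of the table matched, and they were not analysed here.

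Genes that supply cholesterol were mostly not called. Of 15 tested genes of cholesterol synthesis and uptake, 3 were called higher in the ovary and none higher in the endometrium, against 14.5% of all tested genes called higher in the ovary, with a median log2 fold change of 1.19. SCARB1, the receptor that takes up cholesterol from high-density lipoprotein, was at 368, 1295 and 2799 CPM in the ovary and 120 to 139 CPM in the endometrium. Its lowest ovary library, library 1, lay above all endometrium libraries, and the log2 fold change was 3.51 ± 0.71 (SE, adjusted p = 0.0117). DHCR7, the last enzyme of the synthetic route, was also called, at 2.71 ± 0.78 (SE, adjusted p = 0.0416), with ovary values of 17.8, 60.8 and 184 CPM. Without ovary library 3 the log2 fold changes of SCARB1 and DHCR7 were 2.68 and 1.55. None of the 3 calls held when any 1 of the 3 endometrium libraries was left out, and 8 genes of the list were called without ovary library 1.

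All 8 tested granulosa cell markers were called higher in the ovary, with a median log2 fold change of 5.76, or 5.42 with genes of 0 to 3 endometrial counts set at their bound or ratio. Among all tested genes 14.5% were called so. INHA (ENSSSCG00000020771), the alpha subunit of inhibin, was at 3772 and 8963 CPM in ovary libraries 2 and 3 and at 94.5 CPM in library 1. With 2 counts over the 3 endometrium libraries, its ovarian mean was 69747 times the endometrial level (95% counting interval 19308 to 575922; adjusted p = 0.00371 by edgeR). The fitted log2 fold change of INHA was 15.83, and 14.69 without ovary library 3. SERPINE2, a protease inhibitor abundant in granulosa cells, was at 338, 2873 and 5586 CPM in the ovary and at 21.7, 11.2 and 8.94 CPM in the endometrium (log2 fold change 7.71 ± 1.18 SE, adjusted p = 0.00432; 6.85 without ovary library 3). In both genes the ovary libraries kept the same order, with library 1 lowest and library 3 highest. GATA4 was steadier, at 56.2, 52.4 and 119 CPM, and had no count in the endometrium. Its ovarian mean was at least 824-fold higher (floor of 3 counts over the group, adjusted p = 0.00129 by edgeR). Such bounds, here and below, set the mean of the higher tissue against that floor and leave out the spread among its libraries. FSHR, the receptor for follicle-stimulating hormone, also had no endometrial count and was at least 132-fold higher, but with 20.5, 1.33 and 14.6 CPM its ovarian low point was library 2, and its call was lost without any 1 endometrium library. Its fitted log2 fold change, which depends on the prior count, was 9.98, or 9.39 without ovary library 1. AMHR2, the receptor of anti-Müllerian hormone, was even among the ovaries, at 15.5, 14.8 and 17.8 CPM against 1.24 to 1.82 CPM (3.40 ± 0.25 SE, adjusted p = 0.000374). FST, GJA1 and WT1, which encode follistatin, the gap junction protein connexin 43 and a transcription factor of the gonad, had log2 fold changes of 3.80, 2.02 and 1.71, and that of GJA1 was 1.35 without ovary library 3. Left-out libraries reduced the 8 calls to between 5 and 7, except ovary library 3, without which all 8 held.

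Theca cell markers were fewer: 3 of 5 tested genes were called higher in the ovary and 1 higher in the endometrium, with a median of 6.46. The shares of all tested genes were 14.5% and 15.2%. INSL3, the insulin-like peptide made by theca cells, was at 38.8, 350 and 308 CPM in the ovary. A single count of INSL3 in endometrium library 3 put the ratio at 7569 (95% counting interval 1359 to 298970; adjusted p = 0.00149). LHCGR, the receptor for luteinizing hormone, was low but clear, with 3.08, 23.8 and 8.83 CPM against 4 counts in endometrium library 2 and none in the other two (log2 fold change 6.46 ± 1.23 SE, adjusted p = 0.00981). It was 5.47 without ovary library 2 and 9.93 without endometrium library 2, a fitted value that depends on the prior count because no endometrial count is left. PTCH1, the hedgehog receptor, went the other way, with 47.7, 18.4 and 61.7 CPM in the ovary and 121, 148 and 139 CPM in the endometrium (-1.67 ± 0.41 SE, adjusted p = 0.0247). That call was lost without any 1 of the endometrium libraries and without ovary library 1, and GLI1, a hedgehog target, did not pass at -0.52 ± 0.57 (SE).

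Oocyte genes marked the ovary at low levels. On the oocyte list 5 of 8 tested genes were called higher in the ovary, none higher in the endometrium, and the median was 6.72, or 5.25 at the bounds. Taking all tested genes, 14.5% and 15.2% were called. ZP3, a glycoprotein of the zona pellucida, had 80.9, 5.94 and 39.2 CPM in the ovary. Against 1 count in the endometrium this was a ratio of 1371 (95% counting interval 246 to 54153; adjusted p = 0.00395). The fitted log2 fold change of ZP3 was 9.94. It was 9.05 without ovary library 1 and 11.76 without endometrium library 1, which held that count. ZP4, another zona glycoprotein, had 21.6, 5.02 and 21 CPM and no endometrial count, which made it at least 173-fold higher (adjusted p = 0.00616). Ovary library 2 was the lowest for both. The same library was lowest for ZAR1, a maternal-effect gene (20.5, 2.87 and 12.3 CPM; at least 129-fold higher, adjusted p = 0.0112), and for BMP15, the oocyte-derived growth factor (10.9, 1.74 and 9.23 CPM; at least 79.4-fold, adjusted p = 0.0127). Without ovary library 1 the fitted log2 fold change of ZAR1 was 9.32, against 9.95 with it. DDX4, the germ-cell helicase, was the fifth call, at 3.97, 1.64 and 1.71 CPM against 4 counts in the endometrium. GDF9, ZP2 and the meiotic gene SYCP3 were measured in both tissues and did not pass; GDF9 was at 63.1, 28.8 and 37.6 CPM in the ovary and 27.6 to 34.3 CPM in the endometrium. Among the genes with the largest differences outside the lists were 3 more known from germ cells, each without a count in the endometrium. PADI6, an arginine deiminase of the oocyte cytoplasm, was at 61.5, 8.40 and 25.9 CPM (at least 347-fold higher, adjusted p = 0.00865). FKBP6, an immunophilin of germ cells, was at 39.4, 3.18 and 19.5 CPM (at least 225-fold, adjusted p = 0.0159). NLRP9, of a family expressed in oocytes, was at 24.4, 1.84 and 11.8 CPM (at least 138-fold, adjusted p = 0.0196), a call that was lost without endometrium library 2 or 3. With 1 library left out, the fitted log2 fold changes of PADI6, FKBP6 and NLRP9 fell as low as 10.49, 9.89 and 9.17. With all libraries they were 11.38, 10.75 and 10.05, values that depend on the prior count.

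Markers of the luteal cell and of the ovulatory response included genes called in either direction or not at all. Of 3 tested luteal markers only LHCGR, which is also on the theca list, was called, and 2 were called without ovary library 1. The share of all tested genes called higher in the ovary was 14.5%. PGR, the progesterone receptor, was at 4.77, 189 and 181 CPM in the ovary and 67.5, 69.3 and 80.2 CPM in the endometrium, so that ovary library 1 lay below and libraries 2 and 3 above every endometrium library (log2 fold change 0.79 ± 1.02 SE, adjusted p = 0.606). Among 7 genes of the ovulatory response, 3 were called higher in the ovary and 1 higher in the endometrium (all tested genes, 14.5% and 15.2%), with a median of 0.79. RUNX2, a transcription factor of periovulatory follicles, was at 3.87, 8.71 and 12.4 CPM in the ovary against 6 counts in the endometrium (5.40 ± 0.88 SE, adjusted p = 0.0055; 7.16 without endometrium library 1, which held 5 of the 6 counts, and 4.81 without endometrium library 2). HAS2, the hyaluronan synthase of the expanding cumulus, was at 10.1, 21 and 6.32 CPM against 0.573 to 1.24 CPM (3.71 ± 0.56 SE, adjusted p = 0.00421; 3.11 without ovary library 2). PTX3, which stabilizes that matrix, was at 31.5, 40.5 and 197 CPM against 4.78 to 17.3 CPM (3.16 ± 0.86 SE, adjusted p = 0.0348), but lost its call without any 1 endometrium library, and its log2 fold change was 1.84 without ovary library 3 and 3.76 without endometrium library 2. PTGS2, the inducible cyclooxygenase, was the member higher in the endometrium, at 40.6, 25.2 and 40.0 CPM against 3.67, 4.41 and 4.31 CPM in the ovary (-3.09 ± 0.26 SE, adjusted p = 0.00054).

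The ovary libraries differed from each other, and not in the same order for every gene. Over the 447 genes at least 8-fold higher in the ovary, the highest of the 3 ovary libraries was a median of 4.24 times the lowest, and for 197 of them (44.1%) it was more than 5 times. For the 741 genes at least 8-fold higher in the endometrium the median was 1.67, and 21 (2.83%) exceeded 5. The steroid synthesis list summed to 633 CPM in ovary library 1 and to 6219 and 6386 CPM in libraries 2 and 3. Granulosa markers summed to 1174, 7700 and 16900 CPM and theca markers to 186, 3851 and 3412 CPM in the same order of libraries. Library 1 had the lowest of these 3 sums, which a few abundant genes carry. These are INHA and SERPINE2 among the granulosa markers, CYP17A1 in both other lists and CYP11A1 in the steroid synthesis list. By gene, library 1 was the lowest for 6 of 7 steroid synthesis genes, with TSPO lowest in library 3. It was the lowest for only 3 of 8 granulosa markers, INHA, SERPINE2 and GJA1, while FSHR, FST, WT1, GATA4 and AMHR2 were lowest in library 2. Of 5 theca markers, CYP17A1, INSL3 and LHCGR were lowest in library 1, and PTCH1 and GLI1 in library 2. Library 1 was also the lowest for all 15 genes of cholesterol synthesis and uptake and for all 7 smooth muscle markers. Oocyte markers summed to 245, 70.2 and 136 CPM, and by gene library 1 was the highest for all 8 and library 2 the lowest for 7 of 8. Immune markers were arranged differently again, at 7291, 6554 and 115 CPM, with library 3 inside the endometrium range of 108 to 237 CPM, and library 3 was the lowest for 10 of 11 genes. Of that last sum, LYZ (lysozyme) gave 6376, 5861 and 24.9 CPM. APOE, the apolipoprotein of macrophages and steroidogenic cells, shared it at 12415, 9922 and 650 CPM. These sums over unlike genes are descriptions with 3 libraries a tissue, and the part of follicle number, stage or cell mixture in them was not tested.

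**Figure D2:**
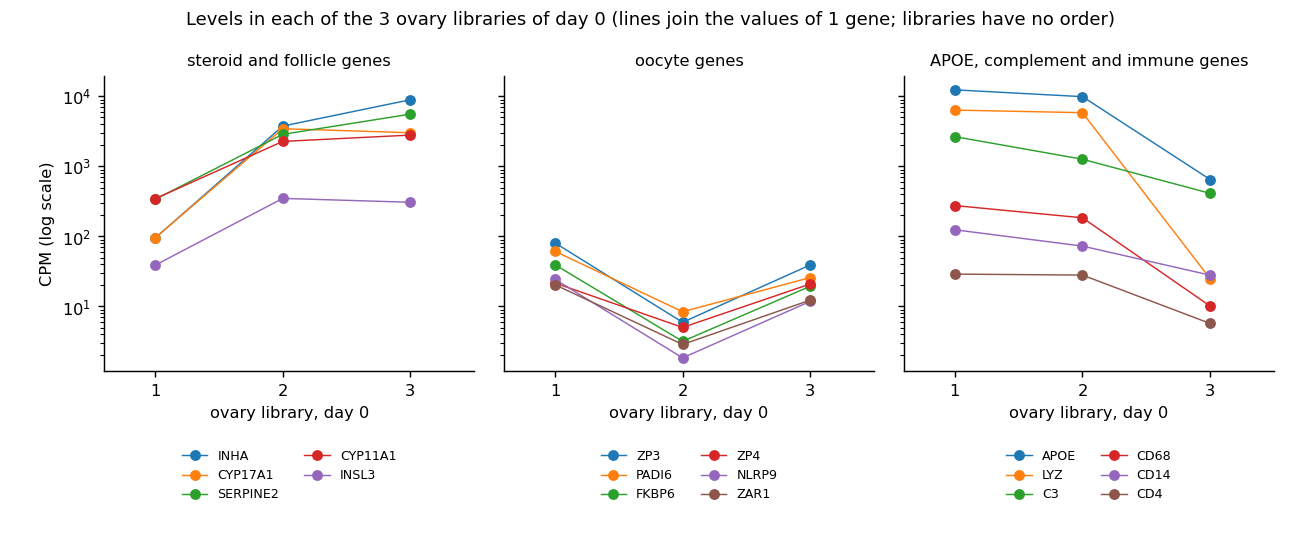
CPM on a log scale in ovary libraries 1, 2 and 3 of day 0, with lines joining the values of the same gene; the libraries have no order. INHA, CYP17A1, SERPINE2, CYP11A1 and INSL3 are lowest in library 1, the 6 oocyte genes are lowest in library 2, and APOE, LYZ, C3, CD68, CD14 and CD4 are lowest in library 3.

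FN1, APOE and THBS1 were among the ovarian genes with the most counts and at least 8-fold differences. FN1 (fibronectin, an adhesive matrix glycoprotein) was at 5379, 18337 and 542 CPM in the ovary and at 539, 371 and 428 CPM in the endometrium, so ovary library 3 only just cleared endometrium library 1. Its log2 fold change was 4.18 ± 1.15 (SE, adjusted p = 0.036), with 2.73 when ovary library 2 was left out, and the call was lost without any 1 of the libraries other than ovary library 3. APOE had 476, 271 and 357 CPM in the endometrium and a log2 fold change of 4.38 ± 1.03 (SE, adjusted p = 0.0206), which lost its call without ovary library 2 or any 1 endometrium library. THBS1, the matricellular protein thrombospondin, was at 1151, 4549 and 893 CPM against 212 to 279 CPM (3.12 ± 0.67 SE, adjusted p = 0.0152), and was not called without any 1 endometrium library. Without ovary library 2 its log2 fold change was 2.02, under 8-fold.

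Uterine patterning genes were an endometrial group. All 5 tested members were called higher in the endometrium, with a median of -7.25 (-6.98 at the bounds), and all 5 held without any 1 library. Among all tested genes 15.2% were called higher in the endometrium. HOXA11 (ENSSSCG00000016698), a homeobox gene required for uterine development, was at 62.6, 47.3 and 63.8 CPM in the endometrium. The ovary held 2 counts of it, both in library 1, so that the endometrial level was 863 times the ovarian (95% counting interval 239 to 7126; adjusted p = 0.000286). HOXA10, its neighbour in the same gene cluster, was at 10.1, 5.62 and 8.41 CPM and had no count in the ovary, at least 80.0-fold higher (adjusted p = 0.00161). MSX1, a homeobox factor of the uterine epithelium, was at 322, 218 and 280 CPM against 1.69, 2.05 and 2.71 CPM (-6.98 ± 0.28 SE, adjusted p = 9.61e-05). PAX2, a factor of the Müllerian duct, was at 76.4, 93.3 and 96.9 CPM against 0.301 to 0.717 CPM (-7.25 ± 0.31 SE, adjusted p = 9.61e-05). HOXD10 differed by -3.57 ± 0.43 (SE, adjusted p = 0.0018). Outside the list, HOXA2 was at 12.6, 27.8 and 28.2 CPM in the endometrium with no count in the ovary, at least 227-fold higher (adjusted p = 0.00169).

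Endometrial epithelium markers followed, with 11 of 13 tested genes called higher in the endometrium, none higher in the ovary and a median of -5.80. Over all tested genes the shares were 15.2% and 14.5%. MMP7 (ENSSSCG00000014982), the epithelial metalloproteinase matrilysin, was at 401, 273 and 211 CPM in the endometrium against 3 counts in the ovary. The ratio was 2931 (95% counting interval 1003 to 14213; adjusted p = 0.000175). EPCAM, the epithelial adhesion molecule, was nearly constant in the endometrium at 607, 633 and 604 CPM and was at 6.45, 9.84 and 10.8 CPM in the ovary (-6.09 ± 0.27 SE, adjusted p = 9.61e-05). KRT8, a keratin of simple epithelia, was at 847, 667 and 709 CPM against 16.7, 13.7 and 31.0 CPM (-5.18 ± 0.38 SE, adjusted p = 0.000374). FOXA2, the transcription factor of uterine glands, was at 84, 174 and 127 CPM against 0, 0.512 and 1.40 CPM (-7.63 ± 0.81 SE, adjusted p = 0.00125; -7.04 without ovary library 1 and -8.92 without ovary library 3). CDH1, CLDN4, KRT18, ELF3, GRHL2, ESRP1 and LGR5 were also called, with log2 fold changes between -7.16 and -3.72. Without ovary library 3 ELF3 was at -7.96 and KRT18 at -6.68. The exceptions were secreted proteins. SPP1 (osteopontin) was at 1462, 976 and 160 CPM in the ovary and 641, 137 and 122 CPM in the endometrium and did not pass (1.53 ± 0.94 SE, adjusted p = 0.269). LTF (lactotransferrin) was at 110, 9.76 and 52.1 CPM in the endometrium and 3.28 to 15.7 CPM in the ovary (-2.73 ± 0.93 SE, adjusted p = 0.0679).

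Several endometrial genes with the largest differences or the most counts lie outside the lists. CYP24A1, which inactivates vitamin D, was at 106, 34.7 and 46.4 CPM against 1 ovarian count, a ratio of 1856 (95% counting interval 333 to 73321; adjusted p = 0.000567). S100G, the calcium-binding protein calbindin-D9k, was at 111, 21.4 and 25.0 CPM against 2 counts, a ratio of 784 (217 to 6473; adjusted p = 0.00201). In both genes endometrium library 1 was the highest, by at least 2-fold. RBBP8NL and ATP13A4, a cation-transporting ATPase, had no ovarian count and were at least 96.6-fold and 75.0-fold higher in the endometrium. ALDH1A1 (ENSSSCG00000028996), which makes retinoic acid from retinal, was at 687, 1073 and 827 CPM against 1.79, 4.82 and 2.61 CPM (-8.13 ± 0.48 SE, adjusted p = 0.000261). TSPAN1, an epithelial tetraspanin, was at 730, 800 and 679 CPM against 4.77 to 11.3 CPM (-6.35 ± 0.41 SE, adjusted p = 0.000287), and LRATD1 was at 524, 1121 and 499 CPM against 6.86 to 10.03 CPM (-6.43 ± 0.45 SE, adjusted p = 0.000356). Each of these genes kept its call without any 1 library.

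Genes of endometrial secretion and prostaglandin metabolism were mixed, with 5 of 10 tested genes called higher in the endometrium, 1 higher in the ovary and a median of -0.66. For all tested genes the shares were 15.2% and 14.5%. SGPP2, a sphingosine-1-phosphate phosphatase, was at 131, 93.9 and 116 CPM in the endometrium and 1.40 to 3.57 CPM in the ovary (-5.65 ± 0.39 SE, adjusted p = 0.000344). Its relative SGPP1 was the member higher in the ovary, at 33.3, 36.5 and 43.6 CPM against 11.6 to 14.6 CPM (1.51 ± 0.19 SE, adjusted p = 0.00185). LCN2 (lipocalin 2) was at 264, 79.8 and 142 CPM in the endometrium and 15.1 to 28.1 CPM in the ovary (-2.85 ± 0.48 SE, adjusted p = 0.00628). HSD11B1, which regenerates active glucocorticoid, was at 176, 105 and 142 CPM against 33.1 to 45.8 CPM (-1.84 ± 0.23 SE, adjusted p = 0.00216). PTGER2, a receptor for prostaglandin E2, differed by -3.0 ± 0.43 (SE, adjusted p = 0.00361), while PTGS1 and PTGES, a constitutive cyclooxygenase and a prostaglandin E synthase, did not pass at 1.35 ± 0.47 and 1.58 ± 0.57 (SE).

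Steroid receptors gave a list whose median (0.68) and calls pointed in opposite directions: 2 of 5 tested receptors were called higher in the endometrium and none higher in the ovary. Over all tested genes these shares were 15.2% and 14.5%. A single endometrial call was left without any 1 of the libraries other than ovary library 3. ESR1, the oestrogen receptor alpha, was at 599, 576 and 682 CPM in the endometrium and at 36, 37.1 and 63.6 CPM in the ovary, a log2 fold change of -3.76 ± 0.29 (SE, adjusted p = 0.000393). PGR, the glucocorticoid receptor NR3C1 and the oxytocin receptor OXTR did not pass, at 0.79, 0.68 and 1.03.

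All 5 tested markers of ciliated cells were called higher in the endometrium, with a median of -3.43, and held without any 1 library. The share of all tested genes called so was 15.2%. FOXJ1, the master regulator of motile cilia, was at 336, 438 and 483 CPM in the endometrium and 4.07, 17.1 and 24.3 CPM in the ovary (-4.79 ± 0.65 SE, adjusted p = 0.00287). CAPS was at 67.2, 82.5 and 113 CPM against 6.85 to 11.2 CPM (-3.31 ± 0.29 SE, adjusted p = 0.000613), and DNAI2, a dynein arm protein, at 31.5, 48.5 and 72.1 CPM against 1.99 to 6.62 CPM (-3.63 ± 0.51 SE, adjusted p = 0.00334). The summed list ran from 497 to 740 CPM in the endometrium and from 36.6 to 70.1 CPM in the ovary. It moves with the epithelial calls above, and its part in them was not tested.

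Genes of the supporting tissues gave 3 lists. Among 11 tested genes of the extracellular matrix, 4 were called higher in the ovary and 1 higher in the endometrium, with a median of 0.38, where 14.5% and 15.2% of all tested genes were called. The 4 ovarian calls fell to 2, 1 and 1 without endometrium library 1, 2 or 3. Calls over all genes, in either direction, also fell in these fits, from 4334 to 2871, 2677 and 2447. COL3A1, an interstitial collagen chain and a gene with among the most counts in both tissues, was at 10254, 8811 and 9556 CPM in the ovary and 15410, 13774 and 16630 CPM in the endometrium, and did not pass (-0.68 ± 0.26 SE, adjusted p = 0.096). LUM, the small proteoglycan lumican, was the endometrial call, at 1200, 674 and 907 CPM against 63.7, 100.1 and 36.4 CPM (-3.80 ± 0.45 SE, adjusted p = 0.0017). COL4A2, a chain of basement membrane collagen, was at 1605, 2074 and 3057 CPM in the ovary against 755 to 1002 CPM (1.42 ± 0.31 SE, adjusted p = 0.0146), a call lost without endometrium library 2 or 3. COL6A1 and SPARC were the other two ovarian calls beside FN1, with log2 fold changes of 1.41 and 0.65. Of 7 smooth muscle markers 3 were called higher in the ovary (median 2.24), against the same 14.5%. ACTA2 (smooth muscle actin) was at 775, 1888 and 1616 CPM against 196 to 327 CPM (2.34 ± 0.40 SE, adjusted p = 0.00635) and TAGLN (transgelin) at 780, 2298 and 1785 CPM against 221 to 332 CPM (2.49 ± 0.43 SE, adjusted p = 0.00678). That list summed to 1944, 5106 and 5638 CPM in ovary libraries 1, 2 and 3, and all 7 genes were called when ovary library 1 was left out, but 2 without any 1 endometrium library. Of 4 endothelial markers, ENG (endoglin) alone was called, at 537, 691 and 601 CPM in the ovary against 240 to 256 CPM (1.31 ± 0.17 SE, adjusted p = 0.00243). The share of all tested genes was again 14.5%. Leaving out ovary library 1 gave 2 endothelial calls.

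Immune markers summed to a high level in 2 of the 3 ovary libraries, as given above. Of 11 tested genes 2 were called higher in the ovary, a share near the 14.5% of all tested genes, and none higher in the endometrium, and the median was 2.43. CD4, a T cell and macrophage surface protein, was at 29.0, 28.1 and 5.72 CPM in the ovary and 0.955, 1.75 and 1.51 CPM in the endometrium (3.88 ± 0.68 SE, adjusted p = 0.00686). CD14, a monocyte receptor, was at 125, 72.8 and 28.0 CPM against 11.3 to 15.7 CPM (2.51 ± 0.52 SE, adjusted p = 0.0133) and was not called without any 1 endometrium library. LYZ, at 6376, 5861 and 24.9 CPM against 17.7 to 115 CPM, missed the threshold (5.93 ± 1.82 SE, adjusted p = 0.0503), as did the macrophage protein CD68 at 276, 185 and 10.1 CPM against 9.86 to 19.0 CPM (3.35 ± 1.04 SE, adjusted p = 0.0524). Without endometrium library 1 or 2 the count was 1, and when ovary library 3 was left out, 8 of the 11 were called higher in the ovary. Calls over all genes, in either direction, were 2871, 2677 and 5553 in these 3 fits, against 4334 with all libraries. The red blood cell list had 1 tested gene, HBB, at 7.89 to 16.3 CPM in the ovary and 25.7, 169 and 12.6 CPM in the endometrium, which did not pass (-2.66 ± 0.98 SE).

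Complement C3 and the oviductal glycoprotein OVGP1 were the 2 ovarian calls among 4 tested genes of complement and oviduct secretion (median 1.69). The share of all tested genes called higher in the ovary was 14.5%. On this list 1 ovarian call was left without any 1 endometrium library, and 3 were made without ovary library 3. C3 was at 2664, 1267 and 412 CPM in the ovary against 84.2 to 225 CPM in the endometrium (3.11 ± 0.73 SE, adjusted p = 0.021), and lost its call without any 1 endometrium library and was at 2.32 without ovary library 1. OVGP1, the major secretion of the oviduct epithelium, was at 582, 2278 and 841 CPM in the ovary and 29.8, 23.8 and 107 CPM in the endometrium (4.53 ± 0.85 SE, adjusted p = 0.00916), or 3.73 without ovary library 2 and 5.52 without endometrium library 3. In the 3 oviduct libraries of day 0 it was at 188058, 50694 and 165261 CPM on the scale of the fit of all 66 libraries, and the part of carry-over from that adjoining tissue in the ovarian level was not tested. The secreted chaperone CLU, at 5047, 6100 and 492 CPM in the ovary and 2847 to 3661 CPM in the endometrium, did not pass (0.27 ± 0.79 SE). Of 7 genes often used as references, ACTB and GAPDH were called higher in the ovary, with log2 fold changes of 1.62 ± 0.31 (SE, adjusted p = 0.00916) and 0.98 ± 0.22 (SE, adjusted p = 0.0177). Among all tested genes 14.5% were. ACTB lost its call without endometrium library 3, and GAPDH without endometrium library 2 or 3 or ovary library 2. Leaving out ovary library 1 gave 4 ovarian calls on this list. UBB, YWHAZ, SDHA, RPL4 and TOP2B did not pass, with log2 fold changes between -0.32 and 0.55.

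**Figure D3:**
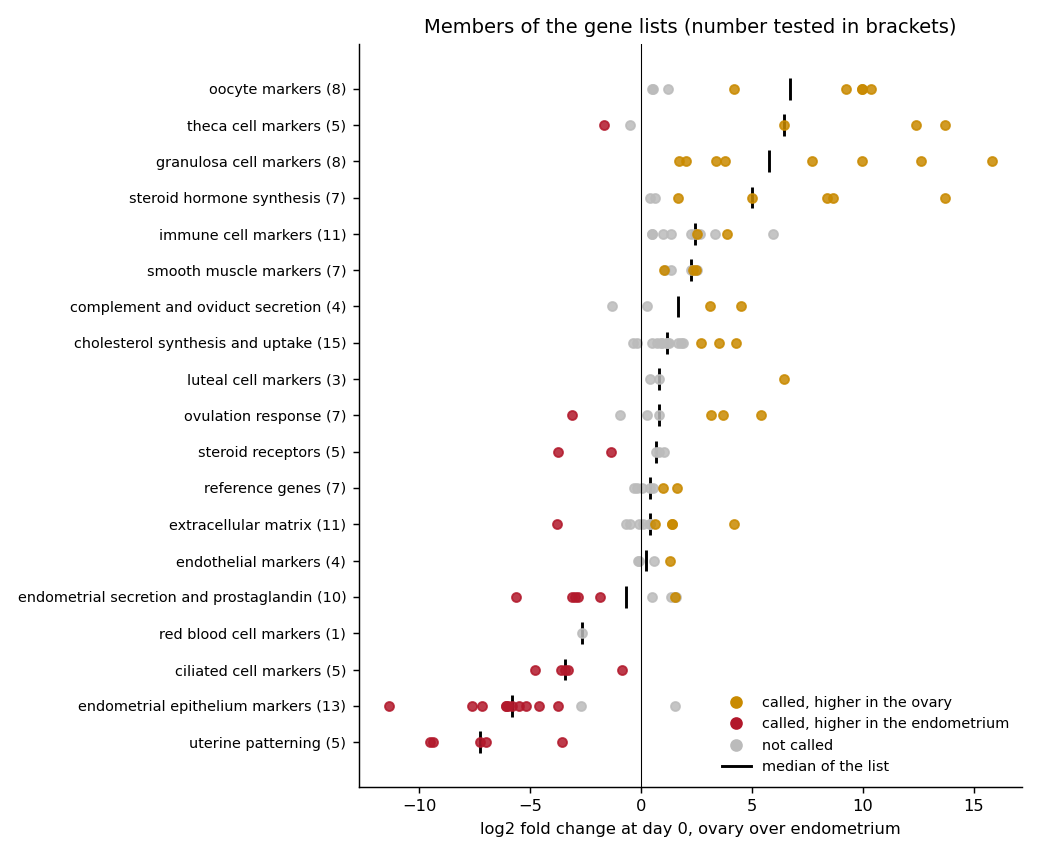
Fitted log2 fold change of ovary over endometrium at day 0 for every tested member of the 19 gene lists, ordered by the median of the list (black tick), with colour for the call. Oocyte, theca, granulosa and steroid synthesis lists have medians between 5.01 and 6.72, uterine patterning and endometrial epithelium lists of -7.25 and -5.80, and the immune, smooth muscle and cholesterol lists hold members with positive values that were not called.

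Some genes had counts almost only in 1 of the tissues. By a description with no test, 84 genes had at least 1 CPM in each ovary library and under 3 counts in each endometrium library, and 96 genes had the reverse. Symbols were found for 54 and 60 of them. The ovarian genes included INHA, CYP17A1, INSL3, GATA4, NR5A1, ZP3, ZP4, ZAR1, PADI6, FKBP6 and NLRP9, and the endometrial genes MMP7, HOXA2, HOXA10, HOXA11, CYP24A1, S100G, RBBP8NL and ATP13A4. Of the 84 ovarian genes, 15 also had at least 1 CPM in every oviduct library of day 0, as did 44 of the 96 endometrial genes. No share over all genes stands beside these counts, so they do not place the oviduct nearer to either tissue. The levels in the oviduct, the tube between ovary and uterus, were set beside both tissues over the wider sets. The oviduct mean on log2(CPM + 1) was closer to the endometrium than to the ovary for 1510 of the 2117 genes higher in the ovary (71.3%) and for 1657 of the 2217 higher in the endometrium (74.7%), where it was so for 61.1% of all 14605 tested genes. Among the at least 8-fold genes these shares were 77.9% and 80.2%. ESR1 was at 853 to 1092 CPM in the oviduct. The uterine patterning genes were not alike there: PAX2 was at 21.5 to 43 CPM, between its ovarian and endometrial levels, MSX1 was at 0.334 to 1.49 CPM, and HOXA11 had no count.

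The same tissues were compared on the other 6 days in a fit of all 66 libraries, which tested 16934 genes, to see which differences of day 0 were also called on days with other libraries. The 2117 genes higher in the ovary at day 0 were called in the same direction for 1004 (47.4%) on day 3, where 13.8% of all genes were, and for 1406 (66.4%) on day 9 and 1568 (74.1%) on day 18, where 21.2% and 17.6% were. For days 6, 12 and 15 the ovarian numbers were 1379, 1404 and 1546, against 21.5%, 23.2% and 22.6% of all genes. Of the 2217 genes higher in the endometrium, 1536 (69.3%) were called so on day 3 (15.6% of all genes), 1647 (74.3%) on day 9 (25.7%) and 1635 on day 18 (16.4%), with 1678, 1647 and 1546 on days 6, 12 and 15 (25.2%, 24.4% and 22.8%). In the same fit 1808 and 2032 of them were called at day 0 itself, where 16.2% and 15.4% of all genes were. Calls in the opposite direction were few, between 2 and 52 of the ovarian and between 2 and 59 of the endometrial genes on any day. Day 3 had 2 ovary libraries and the other days 3 or 4. Without ovary library 1 of day 15, the library with HOXA11, the endometrial genes called in the same direction on day 15 numbered 1725 in place of 1546, and the ovarian ones 1547 in place of 1546; of all genes 23.4% and 22.2% were then called. Every library of the higher tissue lay above every library of the other on all 7 days for 632 of the 2117 ovarian genes (29.9%) and 788 of the 2217 endometrial genes (35.5%), against 4.29% and 5.62% of all genes. Without ovary library 1 of day 15 these became 668 (31.6%) and 1102 (49.7%), against 4.59% and 7.62% of all genes. The day 0 libraries are part of these counts.

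Named genes differed in how far their day 0 difference extended over the cycle. CPM here are on the scale of the fit of all 66 libraries, so day 0 values differ from those given above. GATA4 stayed at 48.8 to 112 CPM in the ovary of every day, with at most 0.0748 CPM in any endometrium library. CYP11A1 was called higher in the ovary on all 7 days, with ovarian values from 153 to 12261 CPM. CYP17A1 had its highest ovarian value at day 0 and was at 43.0 to 125 CPM on day 9, still called higher than the endometrium (7.27 ± 1.55 SE, adjusted p = 0.00013). PADI6 was called on every day but day 6, when the ovary had 0 to 3.19 CPM. On the endometrial side MSX1 was called on all 7 days, with log2 fold changes from -7.02 to -6.37. ESR1 was called on every day, between -4.35 and -2.49. In the endometrium MMP7 was at 202 to 380 CPM at day 0, 136 to 1329 CPM on day 3, 0.193 to 0.929 CPM on day 9 and 133 to 1476 CPM on day 18, and it was not called on days 6, 9 and 12. CYP24A1 was at 33 to 100.3 CPM at day 0, 0.676 to 1.56 CPM on day 9 and 106 to 953 CPM on day 18, and it was not called on day 9. The change of the tissue difference from day 0 to day 9, tested as described next, was not called for these genes: it was 10.01 ± 4.01 (SE, adjusted p = 0.0902) for MMP7 and 7.92 ± 3.21 (SE, adjusted p = 0.0949) for CYP24A1. Nor was it called for CYP17A1 (-6.39 ± 2.57 SE, adjusted p = 0.0913) or PADI6 (-7.40 ± 3.14 SE, adjusted p = 0.118).

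**Figure D4:**
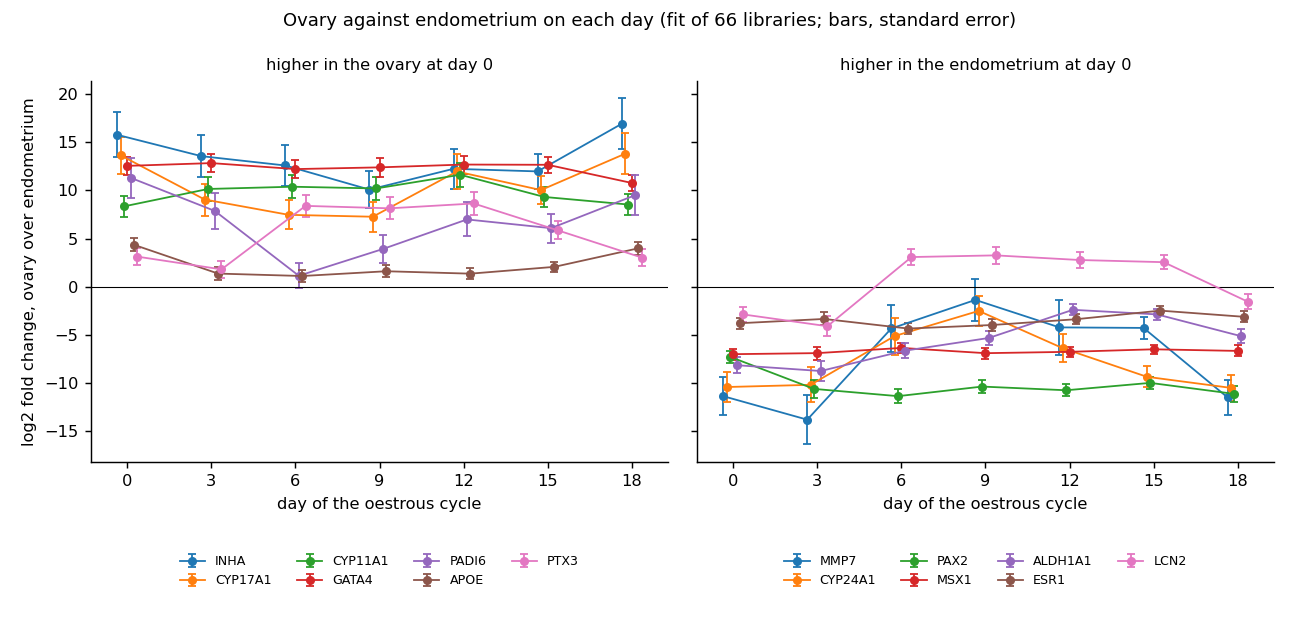
Fitted log2 fold change of ovary over endometrium on each day of the oestrous cycle, from a fit of all 66 libraries. Bars are 1 SE, calculated from the F statistic of the test, and values above 0 are higher in the ovary. GATA4 and MSX1 stay near 12 and -7, MMP7 and CYP24A1 approach 0 on day 9, and LCN2 is at -2.89 at day 0 and 3.25 on day 9; fitted values of genes with 0 to 3 counts in a tissue depend on the prior count.

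The change of the tissue difference itself was tested between day 0 and day 9, in the middle of the luteal phase, as the difference of the differences in the fit of 66 libraries. CPM in this paragraph are on the scale of that fit. The change was called for 2198 genes, 13% of those tested, of which 963 (5.69%) moved towards the ovary and 1235 (7.29%) towards the endometrium. Of the 58 named genes 7 were among these 2198. With the 12 libraries of day 0 and day 9 alone, 3352 genes were called. LCN2 turned over: it was 75.8 to 251 CPM in the endometrium and 14.0 to 26.2 CPM in the ovary at day 0, and 2.80 to 3.72 CPM in the endometrium and 18.1 to 43.6 CPM in the ovary on day 9, so the ovarian values stayed in a like range while the endometrial ones were lower. PTX3 was at 29.3 to 182 CPM in the ovary at day 0 and at 973 to 1350 CPM on day 9. PAX2 was at 72.5 to 92.6 CPM in the endometrium at day 0 and at 566 to 656 CPM on day 9, with at most 1.02 CPM in the ovary. ALDH1A1, SGPP2 and HSD11B1 were lower in the endometrium of day 9 than of day 0, at 109 to 349, 4.06 to 10.04 and 8.64 to 12.2 CPM. APOE was at 600.1 to 11569 CPM in the ovary at day 0 and at 441 to 743 CPM on day 9.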

How the data were processed

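The 66-library table held, per the labels and file headers, whole-number counts per Ensembl gene, deposited by the authors without normalization. RNA was poly-A selected, sequenced as paired ends on a HiSeq instrument, trimmed, and aligned by the authors with TopHat2 to Sscrofa10.2 with Ensembl annotation. The submitters' processing notes name featureCounts; its strand setting is not given in the sources used here, so overlapping and antisense genes cannot be told apart. The labels list 67 samples, and the table's library numbers differ from those in the titles, so columns were assigned to groups only. Symbols came from a reference table (11804 of 25322 identifiers matched).

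Counts were filtered with filterByExpr, scaled by TMM (factors 0.867 to 1.14) and tested with edgeR 4.0.16 (robust quasi-likelihood F-test, Benjamini-Hochberg) in R 4.3.3; DESeq2 1.42.0 was an alternative. Levels plotted or compared on a log2 scale use log2(CPM + 1). CPM do not account for gene length, so words such as low, abundant or most counts refer to counts and not to transcript number. Libraries of a group differed beyond sampling noise (chi-square per degree of freedom 19.6 to 180), and none was a duplicate. In the 6 libraries 3 counts are 0.266 to 0.314 CPM. The scripts were tested on simulated data, with 50 changed genes at each fold. They recovered 5 at 2-fold, 39 at 4-fold, 49 at 8-fold and 47 at 16-fold, with 19 false calls among 14414 genes. Of 200 simulated 8-fold changes of the tissue difference they recovered 153, with 7 false calls. A gene that was not called can therefore still differ between the tissues.

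Named genes needed an adjusted p under 0.05, no overlap between tissues and 10 counts in each library of the higher tissue. In each direction the 8 with the largest fold and the 6 with the most counts among 8-fold genes were taken, and from each of 19 lists the 2 with the most counts and the 2 with the largest fold; other list members named in the text were chosen after their values were seen. The members and lists were chosen with earlier results of these data known. Some genes counted in the lists are not reported here by name.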

Additional observations from a re-analysis of the deposited data

Results flagged for a closer look

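For 7 named genes the ovary-minus-endometrium difference on day 9 differed from that at day 0, by edgeR's quasi-likelihood test of the difference of the log2 differences in the fit of 66 libraries. LCN2 moved by 6.14 ± 1.19 (SE, adjusted p = 0.00037), from -2.89 at day 0 to 3.25 on day 9. HSD11B1, which moved by 2.84 ± 0.57 (SE, adjusted p = 0.00059), also changed side, from -1.87 to 0.96; the other 5 genes were called for the same tissue on both days. PTX3 moved by 5.02 ± 1.27 (SE, adjusted p = 0.00574), SGPP2 by 3.43 ± 1.12 (SE, adjusted p = 0.0332) and ALDH1A1 by 2.83 ± 0.91 (SE, adjusted p = 0.0302), all towards the ovary. PAX2 moved by -3.10 ± 0.89 (SE, adjusted p = 0.0149) and APOE by -2.75 ± 0.86 (SE, adjusted p = 0.0257), both towards the endometrium. Of the 16934 genes tested 13% were called.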

How the results depend on the processing

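Leaving out 1 of the 6 libraries in turn gave 2447 to 5553 called genes, 959 to 2911 of them higher in the ovary and 1488 to 2642 higher in the endometrium, with 316 to 616 and 695 to 825 at 8-fold; a tissue left with 2 libraries has less residual information. With library totals alone in place of TMM, 3342 genes were higher in the endometrium, and with all 66 libraries in the fit 724 were at least 8-fold higher in the ovary; the cause was not tested. DESeq2 size factors gave 4328 calls, no filter 4369, and DESeq2's Wald test and the 66-library fit each 5344. Genes found in 1 tissue numbered 13 and 22 at 5 CPM, and 27 and 17 with 0 counts in the other tissue, for ovary and endometrium, both by construction of a stricter rule, and 100 to 123 and 109 to 136 with a library left out. The day 9 against day 0 change was called for 3352 genes with the 12 libraries of those days alone and for 1511 to 2348 without a day 0 library. None of the 58 named genes reversed under any alternative. Calls were kept by all 58 under both other scalings, no filter and the Wald test, and by 57 in the 66-library fit. Leaving out libraries, 45 kept their call in all 6 runs and 13 lost it in at least 1, among them FN1, APOE, C3, CD14, GAPDH, PTX3, SCARB1, THBS1, COL4A2, NLRP9 and ACTB. A pairing of the tissues by library number was not shown: deviations of same-numbered libraries correlated at 0.199, -0.021 and -0.050. With the number as a replicate block 3281 genes were called, 3185 of them also without it, and 7 of the 58 named genes were not. Taking the day 0 genes from the 66-library fit, an alternative added after seeing the data, changed no count of calls shared with another day by over 1.5 times. Leaving out ovary library 1 of day 15 and the counts of list members without 1 library were also added after seeing the data. Depth limits genes near 3 counts a library.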
